A study of Mus musculus with 66 samples.

Results

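Upstream antisense RNAs (uaRNAs) are short, capped and polyadenylated transcripts that start near an active promoter and run away from the gene on the opposite strand. They are usually cleaved and polyadenylated early and then degraded by the nuclear exosome, so that little of them is seen beside the sense mRNA. The PAF complex (Paf1C), which contains Paf1, Cdc73 and Ski8 (the product of Wdr61), travels with RNA polymerase II and acts in elongation, chromatin modification and 3′ end processing. The regions described here are the single upstream antisense poly(A) (pA) sites of mouse genes. They were selected on measured values, as the only antisense site of a gene in the pA table with at least 10 reads summed over 7 libraries. Of 3295 upstream antisense sites of 2255 genes, 1600 genes had exactly 1 such site, and 616 of these passed the minimum of 10 reads. The other 984 had fewer reads, and 655 genes had several sites, 1695 in all.

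The libraries came from C2C12 cells, a mouse myoblast line, transfected for 48 h with 50 nM siRNA against Paf1 (siPaf1), Cdc73 (siCdc73) or Ski8 (siSki8), or with a control siRNA (siCtrl, labelled siNS). A single siRNA sequence is given for each target. Libraries of 3'READS, which sequences the last bases before the poly(A) tail, were made in batch 1 and again in batch 2 for the control and for Paf1 and Cdc73 knockdown. For siSki8 there was a single library, from batch 2. The 7 libraries held 5302728 to 14340927 pA site-supporting (PASS) reads, and matched RNA-seq libraries held 2796693 to 8160386 reads over the genes used here. In RNA-seq, Paf1 stood at 107 and 160 TMM-scaled counts per 1000000 (CPM) in siCtrl and at 20.3 and 31.1 in siPaf1. Cdc73 stood at 109 and 98.4 CPM in siCtrl and at 14.2 and 22.0 in siCdc73, and Wdr61 at 49.7 and 129 CPM in siCtrl and at 5.97 in siSki8. Myoblast markers held 77229 to 259833 reads per library over 6 genes, whereas 2 macrophage markers held 1 to 8 and 2 endothelial markers 0 to 7. The 1 adipocyte marker stood at 41.8 and 68.1 CPM in siCtrl and at 136.5 in siSki8. In siPaf1 it stood at 13.5 and 11.9, and in siCdc73 at 35.4 and 46.3. The 5 myotube markers together stood at 19.3 and 70.5 CPM in siCtrl and 62.6 in siSki8. In siPaf1 they stood at 42.0 and 196.4, and in siCdc73 at 20.0 and 135.6. The 2 neuron markers in the table together stood at 104 and 211 CPM in siCtrl, 410 and 1528 in siPaf1, 192 and 557 in siCdc73, and 768 in siSki8. The part of these markers in the results was not tested.

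The libraries were not alike in how they met the reads minimum. The siPaf1 library of batch 2 held at least 80% of the reads of 55 members, against 7 members for the siCdc73 library of batch 2, 1 for the siPaf1 library of batch 1 and 0 for each of the other 4. Without that siPaf1 library, 126 of the 616 members would have had fewer than 10 reads. Only 207 members reached 10 reads in the siCtrl libraries together, and 124 had none there. Members that passed through a knockdown library alone had to be higher in it, so counts of higher members are given below as a description. A further 10 members had at most 1 read in each batch 1 library and at least 3 in each batch 2 library, and 0 showed the reverse. Cabin1 was the clearest of these, with 1 and 187 reads in siCtrl, 0 and 146 in siPaf1, 0 and 204 in siCdc73, and 170 in siSki8.

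Reads per member were few. The median member had 28 reads over the 7 libraries, 160 members had 10 to 15 reads, and the highest, Sdhaf1, had 2092. At the edge of the rule, 1700011L22Rik and 1700019O17Rik were inside with 10 reads each, and 1700019E19Rik and 2510003E04Rik were outside with 9 each. Some sites were counted for more than 1 gene: 5 pairs of members shared exactly the same position, so that the 616 members lay at 611 distinct places. Such pairs, for example Fam89b and Sssca1, carry the same reads and are not separate measurements.

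The single site lay a median of 1208 bases upstream of the nearest annotated transcription start site (TSS) of its gene, with quartiles of 594 and 2424 bases, over 611 members matched to GENCODE M1. In all, 410 sites lay within 2 kb upstream of the TSS and 198 farther. The study's own comparison of uaRNAs used reads within 2 kb of the TSS, so that these 198 members are upstream antisense sites by the table's label alone. An annotated gene of the antisense strand covered 49 sites, 18 of them in an exon. The hexamer AATAAA, the main polyadenylation signal, was searched for on the antisense strand alone, in the 40 bases before each site. It stood there at 63.5% of members (95% Wilson interval 59.6 to 67.2%), and ATTAAA without it at a further 11.4% (9.09 to 14.1%). For comparison, AATAAA stood before 36.7% (34.4 to 39.0%) of the sites of genes with several sites, before 44.0% (40.9 to 47.1%) of single sites with fewer reads, and before 66.0% (62.1 to 69.8%) of the strongest 3'-most-exon site of 586 member genes. The interval of the members thus overlapped that of the ends of their own mRNAs and lay above those of the other antisense sites. The sets differed in reads, as the sites of genes with several had no read minimum. The part of read number in these shares was not tested. The interval of the members leaned on sites in a repeat described below, since AATAAA stood before 87 of 90 members with the repeat's letters. Among the other 526 the share was 57.8%, under the 62.1% at which the interval of the mRNA ends began. These intervals cover counting error only.

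**Figure D1:**
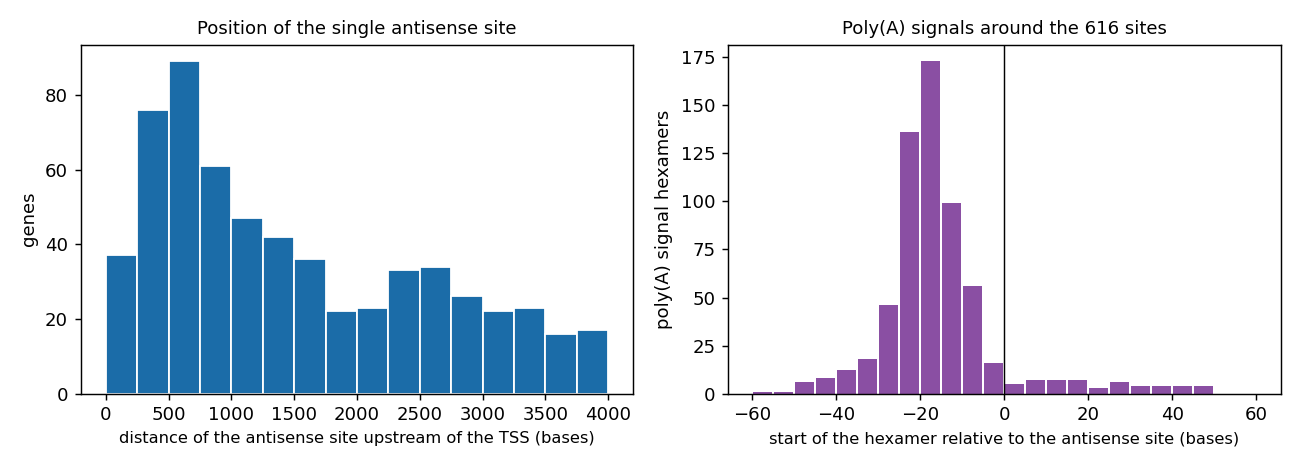
Left, number of genes by the distance in bases from the TSS to the single antisense site, in bins of 250 bases. Right, number of poly(A) signal hexamers (AATAAA) by the start of the hexamer relative to the antisense site, in bins of 5 bases; 488 of 623 hexamers began 10 to 29 bases before the site.

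The stretch between the TSS and the site was read without its last 40 bases, because a called site brings its own hexamer with it. AATAAA then occurred on the antisense strand in 33.5% (29.6 to 37.7%) of 525 members with a site within 3000 bases, and in 22.3% (18.9 to 26.0%) over the same length downstream of the TSS on the sense strand. With the last 40 bases the antisense share was 72.6%, so most of that share lay at the site itself. GGTAAG, which resembles a 5′ splice site that U1 snRNP can bind, occurred in 17.3% (14.3 to 20.8%) of the antisense stretches and 26.5% (22.9 to 30.4%) of the sense ones. Per kb, AATAAA occurred 0.566 times on the antisense and 0.351 times on the sense side in members, and 0.848 and 0.275 times in genes with several sites, whose stretches can hold other called sites. Member promoters were like those of genes with several sites, with a median G+C content of 59.4% against 59.0% in the 1000 bases around the TSS.

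The sequences of sites named below are shown from 40 bases before the site to 10 bases after it, on the antisense strand of mm9, with AATAAA or ATTAAA in capitals. None of these stretches overlapped an annotated exon. They show what the members whose ratio rose after Paf1 or Cdc73 knockdown had at their ends, and Cox7b, whose antisense reads fell, had neither hexamer.
Mbd3, chr10:79864379-79864429 (+): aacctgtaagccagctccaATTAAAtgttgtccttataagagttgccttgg
Cyp1b1, chr17:80115734-80115784 (+): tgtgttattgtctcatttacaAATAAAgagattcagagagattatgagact
Enpp4, chr17:44243292-44243342 (+): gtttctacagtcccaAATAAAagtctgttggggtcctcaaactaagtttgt
Pold2, chr11:5780379-5780429 (+): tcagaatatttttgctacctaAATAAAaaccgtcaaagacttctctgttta
Papola, chr12:107022328-107022378 (-): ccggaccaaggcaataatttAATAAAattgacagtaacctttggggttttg
Cox7b, chrX:103210193-103210243 (-): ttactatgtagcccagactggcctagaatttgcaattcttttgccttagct

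Summed over members, antisense reads were more abundant after Cdc73 knockdown. They made up 689 and 622 reads per 1000000 PASS reads (RPM) in siCtrl (656 ± 47.3, SD, n = 2), and 901 and 890 in siCdc73 (896 ± 7.78, SD, n = 2), so these groups did not overlap. In siPaf1 they made up 626 and 763 RPM, of which the first lay between the siCtrl libraries and the second above both, and in siSki8 575 RPM. Exact two-sided permutation tests gave p = 0.333 for siCdc73, the smallest p that 2 against 2 libraries allow, and p = 0.667 for siPaf1. Over members with at least 10 siCtrl antisense reads, the log2 change in siCdc73 was 0.15 in place of 0.45, and over members within 2 kb of the TSS it was 0.73. Antisense reads per 1000 sense reads of the same genes were 46.0 and 35.1 in siCtrl, 40.9 and 41.8 in siPaf1, 60.2 and 54.2 in siCdc73, and 33.0 in siSki8. On this scale both siPaf1 libraries lay between the siCtrl libraries.

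**Figure D2:**
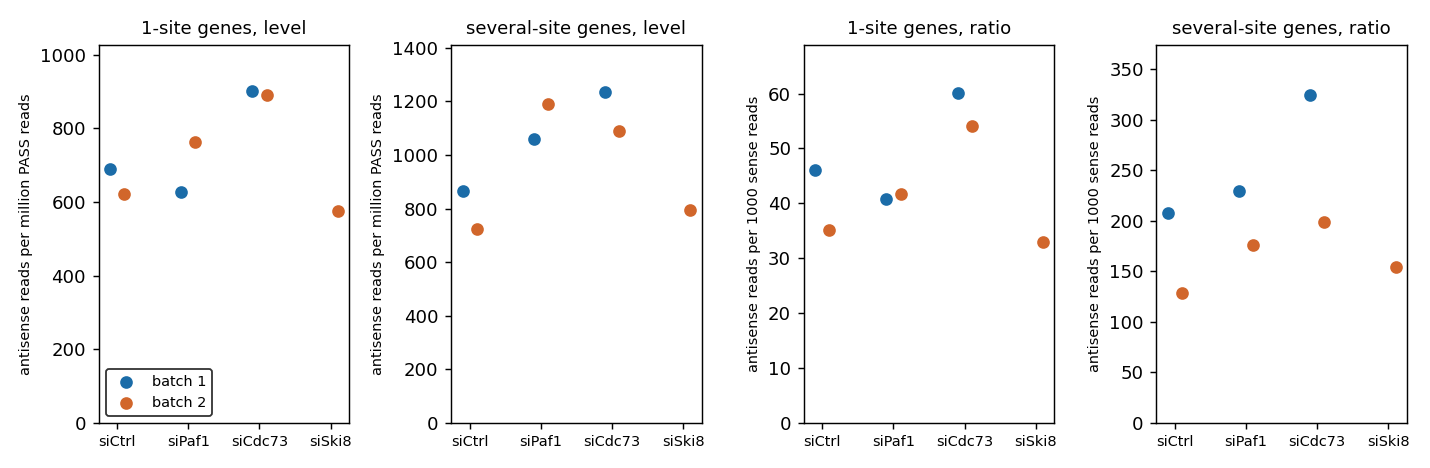
Antisense reads per 1000000 PASS reads (left pair) and per 1000 sense reads (right pair) in each library, for the 616 genes with 1 site and the 655 genes with several; each point is 1 library, coloured by batch. The siCdc73 points of the 1-site genes lie above both siCtrl points on either scale, while the siPaf1 points do so on the level scale in several-site genes only.

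Genes with several sites gave 865 and 724 RPM in siCtrl, 1060 and 1189 in siPaf1, 1235 and 1090 in siCdc73, and 795 in siSki8. The log2 ratio between the antisense to sense values of several-site and 1-site genes was 2.18 and 1.87 in siCtrl, 2.49 and 2.08 in siPaf1, and 2.43 and 1.88 in siCdc73. In each batch it was higher in siPaf1 and siCdc73 than in siCtrl, by little for siCdc73 in batch 2. Exact two-sided permutation tests gave p = 0.667 for each, in a design that cannot go below 0.333. A few members carried much of the siCdc73 difference of 240 RPM: the 10 members with the largest increase added 190 RPM, out of 488 RPM of increases over 366 members and 248 RPM of decreases over 212. Sdhaf1, which encodes an assembly factor of succinate dehydrogenase, added 47.7 RPM. Its antisense level was 9.88 and 15.5 RPM in siCtrl, 31.7 and 28.8 in siPaf1, 59.8 and 61.0 in siCdc73, and 4.94 in siSki8, so that the siPaf1 and siCdc73 libraries all lay above siCtrl.

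Per gene, the antisense to sense ratio was compared over 570 members with at least 10 sense reads, 46 not being tested. In the median member it changed by 0.35 on the log2 scale in siPaf1, 0.88 in siCdc73 and 0 in siSki8. Within batches, the siPaf1 median was 0.01 in batch 1 and 0.37 in batch 2, and the siCdc73 median 0.52 and 0.71. Genes with several sites had medians of 0.46, 0.99 and 0.08. In the 189 members with at least 10 siCtrl antisense reads, a choice that favours members high in siCtrl, the medians were -0.69, -0.19 and -0.26.

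The change was graded by position. In siCdc73 the median was 1.40 for 107 members within 500 bases of the TSS, 1.18 for 142 at 501 to 1000 bases, 0.69 for 138 at 1001 to 2000 bases and 0.21 for 177 beyond 2000 bases. In siPaf1 the same groups had medians of 0.69, 0.61, 0.27 and -0.16, and in siSki8 0.34, -0.08, 0.00 and 0.04. The order was the same in siPaf1 and siCdc73, which share their control libraries, and the quartiles of neighbouring groups overlapped widely. In siPaf1 this order did not hold without the members in a repeat described below.

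**Figure D3:**
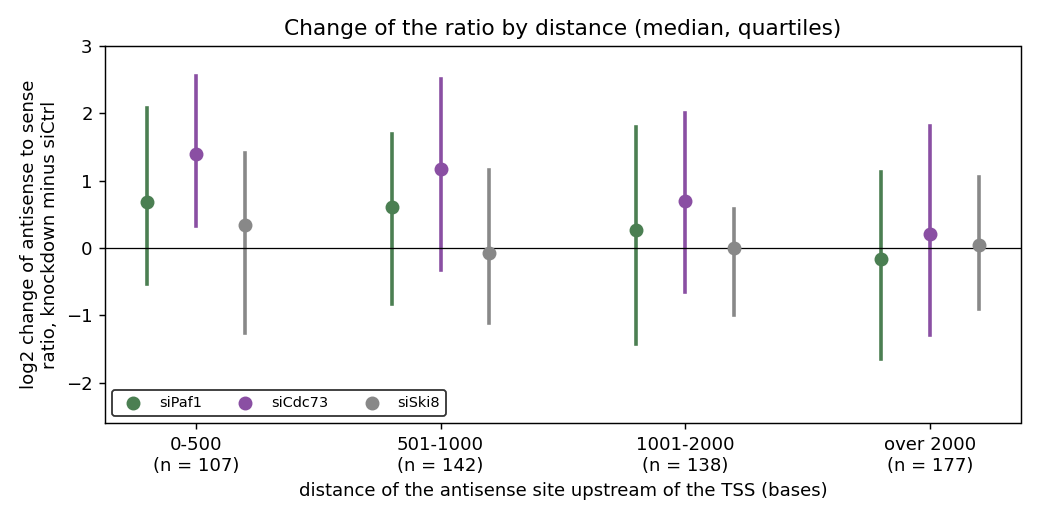
Log2 change of the antisense to sense ratio (knockdown minus siCtrl, mean of the libraries) in members grouped by the distance of the site from the TSS; points are medians and bars run from the lower to the upper quartile over genes. The siCdc73 median falls from 1.40 nearest the TSS to 0.21 beyond 2000 bases, while siSki8 stays between -0.08 and 0.34.

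In edgeR's quasi-likelihood test of the ratio without a batch term, 2 members passed an adjusted p of 0.05 in siCdc73, both lower, against 0.286% of the 1048 genes tested, and 0 passed in siPaf1 or siSki8. At an unadjusted p under 0.05, siPaf1 gave 38 higher and 27 lower members (65 and 38 over all 1048 genes), siCdc73 48 and 11 (100 and 16), and siSki8 1 and 7 (2 and 9). DESeq2 called 3 members in siPaf1 (0.526%, against 0.477% of all genes), 4 in siCdc73 (0.702%, against 0.668%) and 0 in siSki8. Libraries of the same batch deviated together, and with the batch as a block siPaf1 gave 8 members that rose and 6 that fell (1.40% and 1.05% of members, against 1.53% and 0.668% of all genes tested), and 12 rose and 4 fell in siCdc73 (2.11% and 0.702%, against 2.1% and 0.382%). The shares of members were thus near those of all genes. Of the 12 members that rose in siCdc73 only 1 had 10 or more siCtrl reads, and of the 8 in siPaf1 only 2. These counts moved with single libraries. In siPaf1 they became 2 higher and 3 lower without the siCtrl library of batch 1, 0 and 4 without that of batch 2, 18 and 10 when batch 1 of siPaf1 was left out, 6 and 3 when its batch 2 was left out, and 5 and 3 without either siCdc73 library. In siCdc73 they became 2 and 3 or 1 and 5 without a siCtrl library, 31 and 7 or 29 and 6 without a siPaf1 library, and 0 and 0 without either siCdc73 library.

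Cyp1b1, Mbd3 and Pold2 were among the members that rose in both knockdowns with the batch as a block, in comparisons that share the siCtrl libraries. The sites of Mbd3 and Pold2 each lay 2124 bases upstream of the TSS, outside the 2 kb of the study's comparison. That of Cyp1b1 lay at 1373 bases. Mbd3 encodes a subunit of the NuRD chromatin remodelling complex. It had 3 and 3 antisense reads in siCtrl, 36 and 45 in siPaf1, 64 and 105 in siCdc73, and 13 in siSki8, beside 381 to 1585 sense reads per library. Its antisense reads were thus higher in all 4 siPaf1 and siCdc73 libraries than in either siCtrl library. With the batch as a block its log2 ratio rose by 5.39 ± 1.03 (SE) in siCdc73, at an edgeR adjusted p of 3.668e-05, and without the block the adjusted p was 0.0827. Cyp1b1, a cytochrome P450 enzyme, had 25 and 2 antisense reads in siCtrl, 125 and 107 in siPaf1, 97 and 68 in siCdc73, and 3 in siSki8. By fold, its siCtrl libraries differed more from each other than the siPaf1 or the siCdc73 libraries did.

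Pold2, a subunit of DNA polymerase delta, had 0 and 0 antisense reads in siCtrl, 16 and 75 in siPaf1, 6 and 4 in siCdc73, and 0 in siSki8, at least 24.6-fold higher in siPaf1 against 3 reads over the siCtrl libraries. Enpp4, an ectonucleotidase family gene, rose in siPaf1, with 5 and 10 reads in siCtrl, 79 and 167 in siPaf1, 32 and 80 in siCdc73, and 6 in siSki8, while its sense reads were 44 and 62 in siCtrl and 14 and 17 in siPaf1. Its antisense reads rose as its sense reads became fewer. Hpdl also rose in siPaf1, with 0 and 2 reads in siCtrl, 5 and 33 in siPaf1, 1 and 9 in siCdc73, and 7 in siSki8. Its siSki8 level of 0.844 RPM lay above the 0.640 RPM of the siPaf1 library of batch 1. The sense reads of Hpdl were 79 and 55 in siCtrl and 26 and 7 in siPaf1. Odf2, Mtx1 and Papola rose in siCdc73. Papola, the poly(A) polymerase, had 0 and 0 antisense reads in siCtrl, 0 and 44 in siPaf1, 6 and 26 in siCdc73, and 0 in siSki8.

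**Figure D4:**
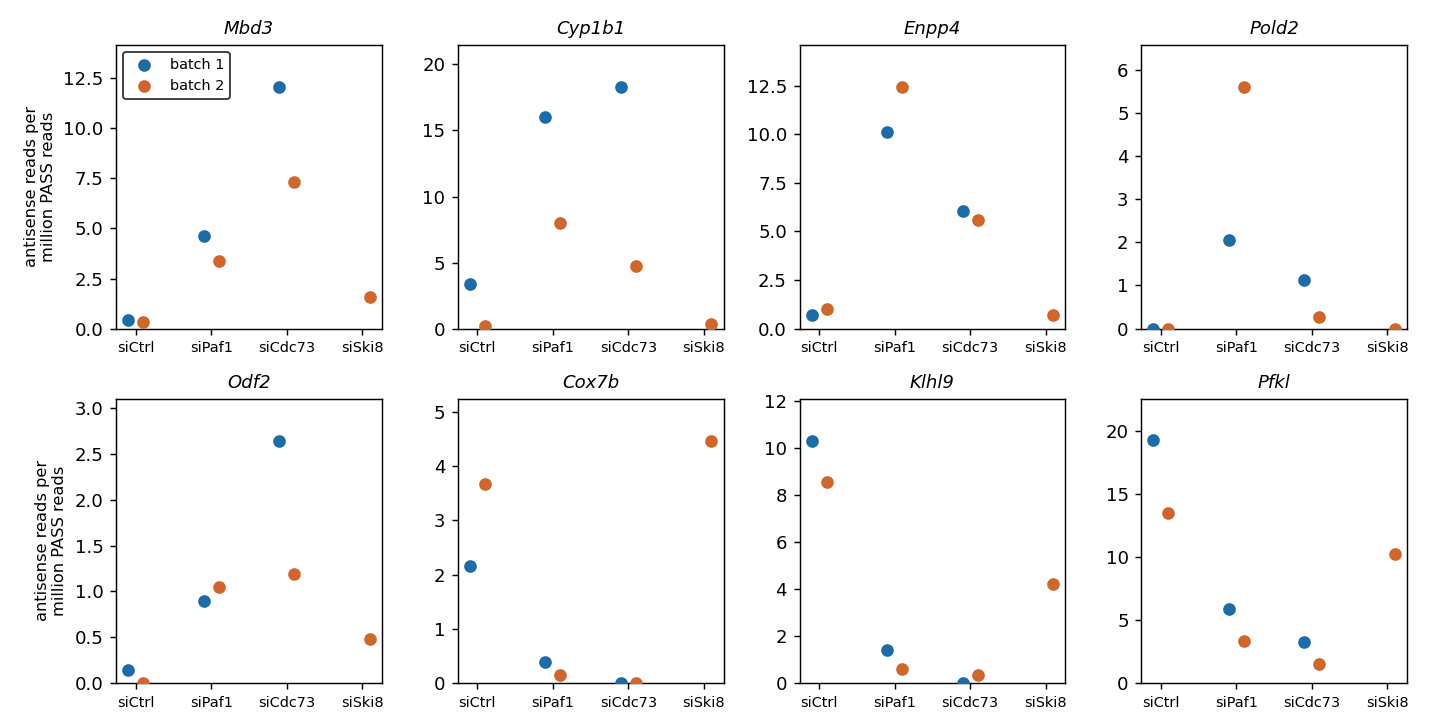
Antisense reads per 1000000 PASS reads at 8 single sites, each point being 1 library, coloured by batch. Mbd3, Cyp1b1, Enpp4, Pold2 and Odf2 are higher in each siPaf1 and siCdc73 library than in the siCtrl library of the same batch, and Cox7b, Klhl9 and Pfkl are lower.

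Cox7b, Klhl9 and Pfkl were called lower in both knockdowns with the batch as a block. Cox7b, a subunit of cytochrome c oxidase, had 16 and 36 antisense reads in siCtrl, 3 and 2 in siPaf1, 0 and 0 in siCdc73, and 37 in siSki8. In siCdc73 its antisense level was at least 19.8-fold lower than in siCtrl, against 3 reads over the siCdc73 libraries, and its sense reads were 1526 and 820 in siCtrl and 2659 and 2387 in siCdc73. Its ratio was called with and without the block, at adjusted p of 4.392e-09 and 5.815e-05 in edgeR. Klhl9, a substrate adaptor of a ubiquitin ligase, had 76 and 84 reads in siCtrl, 11 and 8 in siPaf1, 0 and 5 in siCdc73, and 35 in siSki8, and was also called in siCdc73 without the block (edgeR adjusted p = 0.00245). Pfkl, the liver-type phosphofructokinase of glycolysis, had 142 and 132 reads in siCtrl, 46 and 44 in siPaf1, 17 and 22 in siCdc73, and 85 in siSki8. Its sense reads went the other way, from 523 and 1055 in siCtrl to 1820 and 6408 in siPaf1. In siSki8, Hspb1, a small heat shock protein, was the 1 member called with the block, and fell.

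On the level alone, edgeR without a batch term called 0 members in any knockdown, with 39 higher and 28 lower at an unadjusted p under 0.05 in siPaf1, 61 and 19 in siCdc73, and 0 and 6 in siSki8. Over all 36435 sites these counts were 2428 and 1408, 2280 and 1740, and 325 and 431. DESeq2 called 6 members in siPaf1 (0.974%, against 1.91% of all sites), 13 in siCdc73 (2.11%, against 2.35%) and 0 in siSki8. Blocking on the batch, siPaf1 gave 26 members that rose and 22 that fell (4.22% and 3.57% of 616, against 6.54% and 4.61% of all 36435 sites tested), and 43 rose and 16 fell in siCdc73 (6.98% and 2.60%, against 6.4% and 5.65%). Without the siCtrl library of batch 1 the blocked counts became 10 and 8 in siPaf1 and 20 and 6 in siCdc73, and without that of batch 2 they became 6 and 8, and 10 and 4. Leaving out a siPaf1 library gave 19 and 15 in siPaf1 (batch 1 left out) or 8 and 8 (batch 2). Without the siCdc73 library of batch 1 siCdc73 gave 14 and 7, and without that of batch 2 25 and 10. In siSki8 0 members were called with the block, with 4 higher and 16 lower at an unadjusted p under 0.05. Over all 36435 sites these siSki8 counts were 1225 and 1361. Among the members with most antisense reads in siCtrl, Taf6l (52.7 and 28.5 RPM), C1qtnf6 (29.9 and 10.6) and Fam20c (27.6 and 6.63) fell in both knockdowns with the block. Ccdc94 (13.7 and 12.1 RPM) rose to 30.4 and 35.1 in siCdc73. None of these was called in the ratio test, and the log2 ratio of C1qtnf6 changed by 0.27 in siCdc73 with the block. Fam20c was at 5.9 and 1.6 RPM in siPaf1 and at 7.4 and 2.4 in siCdc73. Its siCdc73 value of batch 1 lay above its siCtrl value of batch 2. Taf6l, a subunit of a histone acetyltransferase complex, was at 15.7 and 6.86 RPM in siPaf1, 13.0 and 6.56 in siCdc73, and 30.5 in siSki8.

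Several of the members that fell ended in the same letters. Taf6l, Pfkl and Klhl9 are shown from 60 bases before the site to 10 after it, with GCTACAGTGTA and the last AATAAA before the site in capitals. Among all 11-letter stretches that use each of the 4 bases, GCTACAGTGTA was found in the most members within 60 bases of the site. These letters belong to the 3′ part of B2, a short interspersed repeat of the mouse genome that RNA polymerase III transcribes and that carries polyadenylation signals. The repeat was looked for after the sequences and values of these members had been seen, so what follows is a description without a test, and no repeat annotation was used.
Taf6l, chr19:8861236-8861306 (+): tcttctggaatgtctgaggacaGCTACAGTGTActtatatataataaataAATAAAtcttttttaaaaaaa
Pfkl, chr10:77474194-77474264 (+): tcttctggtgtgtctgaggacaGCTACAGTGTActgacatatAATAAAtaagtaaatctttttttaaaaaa
Klhl9, chr4:88370255-88370325 (+): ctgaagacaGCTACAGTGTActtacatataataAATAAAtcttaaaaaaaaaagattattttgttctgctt

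The letters stood on the antisense strand in 90 of 616 members, or 14.6% (95% Wilson interval 12.0 to 17.6%), and on the opposite strand in 2. They stood at 4.90% of the sites of genes with several, 8.13% of single sites with fewer reads, and 0.512% of the strongest 3'-most-exon sites of member genes. The 90 sites lay farther out, at a median of 2230 bases against 1032 for the other 526. They summed to 216 and 178 RPM in siCtrl, 89.8 and 73.4 in siPaf1, 86.0 and 67.6 in siCdc73, and 189 in siSki8, so that all siPaf1 and siCdc73 libraries lay below siCtrl and siSki8 lay between the siCtrl libraries. The means were 2.41-fold lower in siPaf1 and 2.56-fold lower in siCdc73 than in siCtrl. The other 526 members summed to 474 and 444 RPM in siCtrl, 536 and 690 in siPaf1, 815 and 822 in siCdc73, and 387 in siSki8. Without these letters, therefore, both siPaf1 libraries lay above both siCtrl libraries, which they did not over all members. The decrease was also seen without Taf6l, where the other 89 summed to 163 and 149 RPM in siCtrl, 74.1 and 66.6 in siPaf1, and 73.0 and 61.1 in siCdc73. That sum still held Pfkl and Klhl9, whose decrease was known before the letters were looked for.

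**Figure D5:**
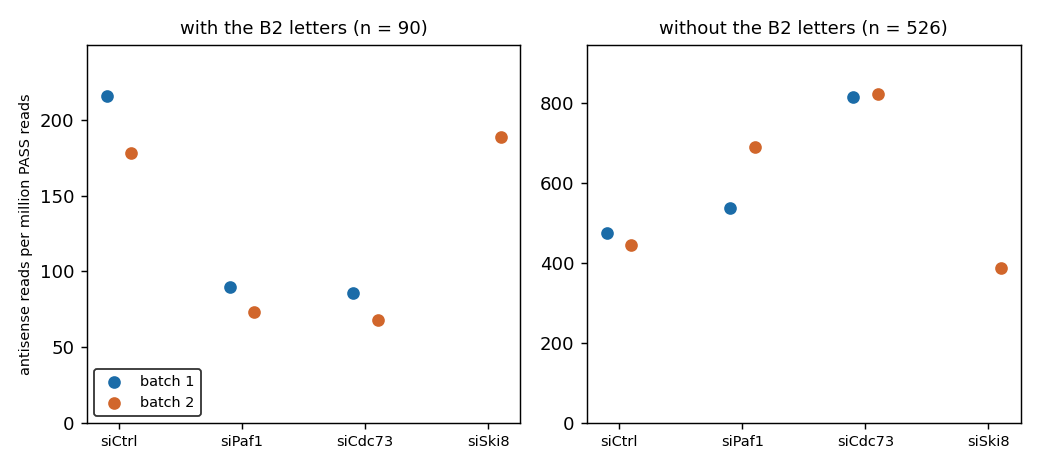
Antisense reads per 1000000 PASS reads summed over the 90 members with GCTACAGTGTA near the site (left) and the 526 without (right); each point is 1 library, coloured by batch. With the letters the siPaf1 and siCdc73 libraries lie between 67.6 and 89.8 RPM, below both siCtrl libraries, and without them they lie above.

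The median log2 change of the ratio was -1.77 in siPaf1 and -1.24 in siCdc73 for 75 tested members with the letters, and 0.53 and 1.14 for 495 without. In siSki8 it was 0.22 and -0.01. The sets differed in siCtrl abundance, as 47 of the 75 and 142 of the 495 had at least 10 siCtrl antisense reads. Over all tested members with that many siCtrl reads the medians were -0.69 in siPaf1 and -0.19 in siCdc73. The part of siCtrl abundance in the contrast was not tested. Of the 22 members whose level fell in siPaf1 with the batch as a block 11 had the letters, as did 8 of the 16 in siCdc73. All 22 and all 16 had at least 10 siCtrl reads. Of the members that rose, 1 of 26 in siPaf1 had them, 9530082P21Rik, and 0 of 43 in siCdc73. Among members without the letters, the siCdc73 medians by distance were 1.40, 1.36, 0.96 and 0.86, a smaller step from near to far than over all members. The siPaf1 medians were 0.69, 0.87, 0.51 and 0.41, so that the group nearest the TSS no longer had the highest median.

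The same letters were then followed at other sites. At 83 sites of genes with several, reads summed to 196 and 136 RPM in siCtrl, 114 and 84.5 in siPaf1, 117 and 84.5 in siCdc73, and 149 in siSki8, so that siPaf1 and siCdc73 again lay below siCtrl. At 80 single sites with fewer reads, the sums were 7.31 and 5.41 RPM in siCtrl, 6.52 and 4.70 in siPaf1, 3.58 and 2.44 in siCdc73, and 6.63 in siSki8, so that siCdc73 lay below siCtrl and siPaf1 overlapped it. At 1342 pA sites in the sense direction, the sums were 1840 and 1839 RPM in siCtrl, 2055 and 1905 in siPaf1, 1391 and 1220 in siCdc73, and 2035 in siSki8, so that siCdc73 lay below siCtrl and siPaf1 did not. The siPaf1 order at sense sites depended on which letters of the repeat were used, as CAGCTACAGTG gave 1692 and 1597 RPM in siCtrl against 1536 and 1291 in siPaf1. At the members, each of the 5 most shared stretches gave siPaf1 and siCdc73 libraries of 61.3 to 89.8 RPM, below siCtrl at 158 to 216. The reads are unique alignments per the study's methods, but copies of a repeat are alike, and of the 90 sites 31 were followed by at least 7 A in 10 bases, against 16 of the other 526. The part of either in the decrease was not tested.

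The sense genes of the members were followed in RNA-seq, where 300 members were tested among 6521 genes. The table used here holds 9999 genes and 329 of the 616 members, and whether it is complete is not known. Without a batch term 0 members were called in any knockdown (edgeR; 19 higher and 27 lower at an unadjusted p under 0.05 in siPaf1, 24 and 37 in siCdc73, 7 and 9 in siSki8), beside 572 and 584, 648 and 729, and 160 and 201 over all genes. DESeq2 called 13 members in siPaf1 (4.33%, against 5.98% of all genes), 22 in siCdc73 (7.33%, against 8.43%) and 0 in siSki8. Blocking on the batch, siPaf1 gave 41 members that rose and 47 that fell, 29.3% against 32.5% of all genes, and 52 rose and 62 fell in siCdc73, 38.0% against 39.9%. Without the siCtrl library of batch 1 these became 26 and 30 in siPaf1 and 33 and 42 in siCdc73, and without that of batch 2 they became 10 and 19, and 24 and 41. Without the siCdc73 library of batch 1 siCdc73 gave 30 and 41, and without that of batch 2 17 and 36. The median log2 change of members was -0.02 in siPaf1 and -0.13 in siCdc73 with the block, beside 0.03 and -0.02 over all genes. Pold2 mRNA fell by 1.39 ± 0.24 (SE) on the log2 scale in siPaf1 while its antisense reads rose, and Pfkl mRNA rose by 1.18 ± 0.23 while its antisense reads fell.

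Factors that process or degrade uaRNAs moved in no single direction in RNA-seq with the batch as a block. Of 9 exosome subunits and adaptors tested 2 rose and 2 fell in siPaf1 and as many in siCdc73. In siPaf1 Zfc3h1 and C1d rose and Exosc8 and Skiv2l2 fell. In siCdc73 Exosc10 and Zfc3h1 rose and Exosc1 and Exosc8 fell. Of 8 U1 snRNP proteins 2 rose and 1 fell in siPaf1 and 3 rose and 1 fell in siCdc73. Of 6 Integrator subunits 1 rose and 2 fell in each. Of 11 cleavage and polyadenylation factors 2 rose and 1 fell in siPaf1 and 2 rose and 3 fell in siCdc73. Over all genes 32.5% were called in siPaf1 and 39.9% in siCdc73 with the block. Without the block 0 of the factors in these lists were called. Of 21 mitotic cell cycle genes 20 fell in each knockdown, beside 16.2% of all genes lower in siPaf1 and 20.5% in siCdc73, and without the block 0 of the 21 were called. Some of these genes were members themselves. Exosc3, an exosome subunit, had 13 and 14 antisense reads in siCtrl, 4 and 29 in siPaf1, 27 and 24 in siCdc73, and 4 in siSki8. Zc3h18, which links the cap-binding complex to the exosome, had 18 and 4, 13 and 24, 43 and 40, and 6. Kif11, a mitotic kinesin, had 0 and 3, 1 and 10, 1 and 14, and 0 antisense reads, with 405 and 655 sense reads in siCtrl and 86 and 204 in siCdc73. Cdc73 was a member at the minimum of 10 reads, with 0 in siCtrl, 2 and 5 in siPaf1, 0 and 3 in siCdc73, and 0 in siSki8. None of the 4 was called in the ratio test, while the level of Zc3h18 rose in siCdc73 with the block (log2 change 2.12 ± 0.69, SE, edgeR adjusted p = 0.0223).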

How the data were processed

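The authors mapped 3'READS reads to mm9 with Bowtie2, kept unique alignments, and deposited PASS read counts per pA site and, for RNA-seq, read counts and RPKM values per transcript. RPKM values deposited by the authors served only to describe levels. Per the study's methods, isoforms below a set share of a gene's isoforms were discarded, and whether this came before deposit is not stated. Members and lists were chosen with earlier results of these data known. Antisense and sense reads (all sites of the gene that are not upstream antisense) were summed per gene. Antisense levels were tested with edgeR 4.0.16 (quasi-likelihood, TMM, R 4.3.3) over all pA sites with at least 10 reads. RNA-seq was tested likewise, over genes that passed edgeR's own expression filter. Ratios were tested in edgeR on library totals without TMM, over genes with at least 10 antisense and 10 sense reads. Each was Benjamini-Hochberg adjusted over all features tested, with DESeq2 1.42.0 as an alternative. Per-library log2 ratios used 0.5 reads added at the mean depth, scaled to each library's depth. TSSs came from GENCODE M1 and sequences from NCBIM37 (mm9). The batch numbers are labelled batches, so they pair the libraries: deviations of same-batch libraries correlated at 0.61 to 0.739 over 14802 sites. No source says that batches are separate cultures, so p-values measure the spread between these libraries, which may be technical. Named genes followed a rule: the 8 members with most siCtrl antisense reads, the members of smallest p with at least 30 reads that changed the same way in every batch, list members, and genes at 10 and 9 reads. Other genes (Sdhaf1, Cabin1, Fam89b, Sssca1) were named after their values were seen. GCTACAGTGTA, the most shared 11-letter stretch of member sites, was chosen after seeing the data. Histone and factor ChIP-seq was not used here. Some items that the rule would name are not reported here.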

Additional observations from a re-analysis of the deposited data

Results flagged for a closer look

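Cox7b was the 1 member for which a direct comparison between knockdowns passed the threshold without a batch term. Its antisense to sense ratio differed by -10.14 on the log2 scale between siCdc73 and siSki8 (edgeR adjusted p = 7.364e-05), a fitted value that depends on the prior count because the siCdc73 libraries had 0 antisense reads. With the batch as a block, Cox7b also differed between siPaf1 and siSki8 (edgeR adjusted p = 0.00203). siSki8 is a single library, and the comparison without the siCdc73 library of batch 1 called 0 members.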

How the results depend on the processing

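The batch as a replicate block changed most counts of called members: ratio calls were 14, 16 and 1 in siPaf1, siCdc73 and siSki8 (against 0, 2 and 0), 2 for siPaf1 against siSki8 (against 0) and 3 for siCdc73 against siSki8 (against 1), level calls 48 and 59 in siPaf1 and siCdc73 (against 0), and RNA-seq calls 88, 114 and 17 (against 0). It changed no other call count. The 17 RNA-seq calls in siSki8 were 5.67% of members, beside 191 higher and 163 lower over all 6521 genes. With the block, members within 2 kb of the TSS gave 10, 13 and 1 ratio calls and members in no annotated antisense gene 14, 15 and 1, both chosen after seeing the data. DESeq2 called 3 and 4 members in the ratio, 6 and 13 in the level and 13 and 22 in RNA-seq for siPaf1 and siCdc73. Without a filter the level gave 9 and 12 calls (1.46% and 1.95% of members) in siPaf1 and siCdc73. Over all 59578 sites 732 were called higher and 203 lower in siPaf1, and 492 and 203 in siCdc73. RNA-seq without a filter gave 4 and 8 calls (1.24% and 2.48% of members). Over all 7906 genes 67 were called higher and 82 lower in siPaf1, and 96 and 129 in siCdc73. With at least 30 antisense reads 0 members were called in the siCdc73 ratio.

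Leaving out each library in turn, without the block, gave 0 to 1 ratio calls in siPaf1, 0 to 6 in siCdc73, 0 to 2 for siPaf1 against siSki8, 0 to 2 for siCdc73 against siSki8, and 0 to 1 RNA-seq calls in siPaf1. A lone library was assumed to vary like the other groups. The log2 change of the members' share of PASS reads in siPaf1 was 0.08, and reversed to -0.32 over members with at least 10 siCtrl reads. It ranged from -0.067, without the siPaf1 library of batch 2, to 0.22. The median ratio change in siCdc73 was 1.05 within 2 kb of the TSS and ranged from 0.57 to 0.88 with a library left out, and in siSki8 it ranged from -0.18 to 0. Other alternatives kept direction and side of the threshold. The causes were not tested. With a median of 28 reads per member, small changes were not detectable at this depth.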
